A study of Chromochloris zofingiensis with 18 samples.

Results

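The 4 genes *DXS*, *CMK*, *MCS* and *FPPS* were followed in the green microalga *Chromochloris zofingiensis* (strain ATCC30412) during sulfur starvation (SS) and sulfur replenishment (SR). *DXS*, *CMK* and *MCS* act in making the isoprenoid building blocks used for carotenoids, and *FPPS* joins such blocks. The 4 genes were taken as a fixed list of gene IDs from the larger set that the study annotates to this supply route. That list was chosen with earlier results of these data known, and the other genes of the route are given after it. The 4 are *DXS* (Cz02g35280), a deoxyxylulose 5-phosphate synthase, *CMK* (Cz11g24270), a kinase of diphosphocytidyl methylerythritol, *MCS* (Cz02g10180), which makes methylerythritol cyclodiphosphate, and *FPPS* (Cz01g03190), a farnesyl diphosphate synthase. They are 4 of the 15220 genes with a value in at least 1 sample, and all 4 were listed in all 18 samples. Poly-A RNA was sequenced from 6 groups of 3 biological replicates each. The groups were the 0 h samples, taken as sulfur was withdrawn, cells starved for 6, 12, 24 and 48 h (each named by its time, as SS-6 h), and cells starved for 48 h and then given sulfur again for 12 h (SR-12 h). All cultures grew in continuous light with CO2-enriched air, and starvation meant washed cells resuspended in a medium in which MgSO4 had been exchanged for MgCl2. No sulfur-replete culture of the same age is among the samples analysed here, so starvation and time since resuspension cannot be told apart.

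Carotenoids are assembled from the 5-carbon units isopentenyl diphosphate and dimethylallyl diphosphate. In green algae these come from the methylerythritol 4-phosphate (MEP) pathway of the plastid. DXS opens this pathway by joining pyruvate and glyceraldehyde 3-phosphate, CMK is an ATP-dependent kinase in its middle, and MCS closes the product of CMK into a cyclic diphosphate with release of CMP. FPPS lies outside the MEP pathway. It joins the building blocks into farnesyl diphosphate, from which squalene and sterols are made, whereas carotenoids are made from geranylgeranyl diphosphate, the product of the neighbouring enzyme GGPPS. The paper counts FPPS among the steps that lead to carotenoids. *C. zofingiensis* is known for making the red ketocarotenoid astaxanthin under stress.

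The values are FPKM, fragment counts scaled to the length of the transcript and to the mapped total of the sample, so levels of different genes are compared per length. They are relative to the mapped total of a sample, and transcripts per cell were not measured. The FPKM of a sample did not add up to a common total. The sums ran from 895979 (SS-48 h replicate 3) to 1136889 (SS-6 h replicate 1). The other SS-6 h replicates were at 983847 and 945595. Between 14351 and 14867 genes were listed per sample, and the relative depth, recovered from the steps between low FPKM values, lay between 0.767 and 1.031. The lowest depth belonged to SS-6 h replicate 1, which also stood apart from its replicates (Pearson r of log2 values 0.955 and 0.932, against at least 0.979 for the other replicate pairs). Each log2 difference of the 4 genes between SS-6 h and 0 h is therefore given with and without this library. *RBCS* (Cz17g13100), the small subunit of Rubisco, was lower in SS-6 h than in 0 h (log2 fold change −2.05, adjusted p = 4.62e-05). The 2 genes annotated as sulfate transporter 4, Cz03g08060 and Cz03g08070, were picked as a check of the treatment. They did not pass the call rule in any comparison with 0 h, and both averaged less in SS-6 h than in 0 h (468 against 683 FPKM for Cz03g08060 and 325 against 606 FPKM for Cz03g08070). Neither gene averaged above 0 h in any later group, so the check did not show a rise with starvation. Replicate 1 lowers the SS-6 h mean of Cz03g08070, whose samples were at 191, 388 and 396 FPKM, against 560, 639 and 618 FPKM at 0 h.

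*DXS* was the most abundant of the 4 transcripts, with an average of 184 FPKM over all samples, above 94.8% of all genes, although in SS-48 h *FPPS* averaged more (132 against 103 FPKM for *DXS*). *FPPS* followed with 114 FPKM (above 90.6% of genes), then *CMK* with 48.1 FPKM (above 71.7%) and *MCS* with 30.8 FPKM (above 54.9%). The highest group mean exceeded the lowest by a similar factor in each gene: 2.29-fold in *DXS*, 2.52-fold in *CMK*, 2.42-fold in *MCS* and 2.38-fold in *FPPS*. The order of the groups differed from gene to gene. A limma F test over the 6 groups, on log2(FPKM + 1) and with Benjamini-Hochberg adjustment over all 15220 genes, gave an adjusted p of 6.37e-09 for *DXS*, 2.41e-08 for *CMK*, 7.38e-07 for *MCS* and 1.31e-09 for *FPPS*. Such a difference was found for 91.5% of all genes, so passing this test does not set the 4 genes apart.

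**Figure D1:**
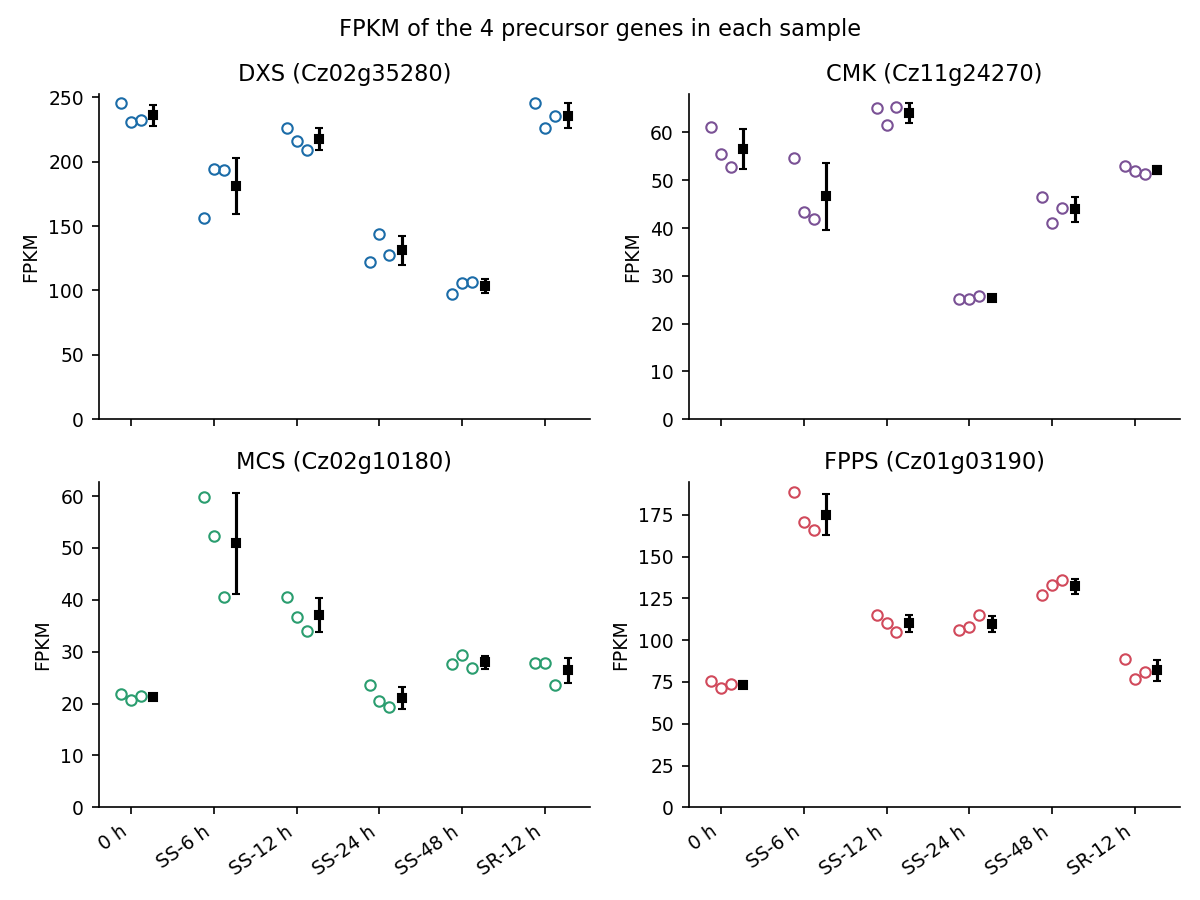
FPKM of *DXS*, *CMK*, *MCS* and *FPPS* (y axis of each panel, starting at 0) in the 6 groups (x axis). Open circles are the 3 replicates and black squares with bars the mean and SD. *DXS* is lowest in SS-48 h (103 ± 5.29), *CMK* in SS-24 h (25.4 ± 0.431), and *MCS* and *FPPS* are highest in SS-6 h (50.9 ± 9.74 and 175 ± 12.2).

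Differences between groups are log2 fold changes of FPKM + 1 from limma, with the standard error (SE), and a gene was called when it changed at least 2-fold, which is 1 on this scale, at an adjusted p of at most 0.05. The 5 comparisons with 0 h use the same 0 h samples and are therefore not independent of each other. The median of all genes with a mean of at least 1 FPKM was itself shifted, by −0.20 in SS-6 h, −0.06 in SS-12 h, −0.03 in SS-24 h, 0.22 in SS-48 h and −0.08 in SR-12 h against 0 h, and by −0.36 in SR-12 h against SS-48 h. Along the course it was shifted by 0.18 (SS-12 h over SS-6 h), 0.02 (SS-24 h over SS-12 h) and 0.23 (SS-48 h over SS-24 h). A difference after subtracting this shift is called the difference beyond the all-gene median. Several differences under 2-fold moved with it, or with median-ratio scaling or quantile normalization between samples. Values for a number of these differences are given with the gene.

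*DXS*, the entry step, was lowest late in starvation and overlapped its 0 h level after replenishment. It stood at 156, 194 and 193 FPKM in SS-6 h, 227, 216 and 209 FPKM in SS-12 h, 122, 144 and 127 FPKM in SS-24 h, and 97.1, 106 and 106 FPKM in SS-48 h, against 246, 231 and 232 FPKM at 0 h. All 12 starved samples were below the 3 samples of 0 h, and the 3 samples of SS-48 h were the lowest of the series. At SR-12 h the level was 246, 226 and 236 FPKM, which overlapped 0 h. Of these 3 samples only the lowest was under a starved sample, SS-12 h replicate 1, and by less than 1 FPKM.

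The loss of *DXS* transcript in SS-48 h was called, with a log2 fold change of −1.19 against 0 h (SE 0.085, 95% interval −1.37 to −1.01, adjusted p = 1.23e-08), or −1.41 beyond the all-gene median. At SS-24 h the difference was −0.85 (adjusted p = 9.47e-07) and under the 2-fold limit, in SS-6 h −0.39 (adjusted p = 0.000848) and −0.28 without replicate 1 of SS-6 h, and in SS-12 h −0.12 (adjusted p = 0.247). With quantile normalization the SS-24 h difference was −1.05 and was called, and those of SS-6 h and SS-12 h were −0.78 and −0.35 (adjusted p = 3.9e-06 and 0.00609). With median-ratio scaling the SS-6 h difference was −0.18 (adjusted p = 0.0768), close to its −0.19 beyond the all-gene median. *DXS* was called higher in SR-12 h than in SS-48 h, by 1.19 (SE 0.085, adjusted p = 9.42e-09), which is 2.29-fold in FPKM. Between SR-12 h and 0 h the difference was 0.00, and its 95% interval ran from −0.18 to 0.18. From one time to the next, *DXS* differed by 0.27 in SS-12 h over SS-6 h (adjusted p = 0.0157), −0.73 in SS-24 h over SS-12 h (adjusted p = 2.69e-06) and −0.34 in SS-48 h over SS-24 h (adjusted p = 0.00292). None of these 3 steps reached 2-fold. The SS-12 h over SS-6 h step was 0.16 without replicate 1 of SS-6 h (adjusted p = 0.0529) and 0.10 with median-ratio scaling (adjusted p = 0.334), and the SS-48 h over SS-24 h step was −0.57 beyond the all-gene median. With quantile normalization these steps were 0.43 (adjusted p = 0.00179) and −0.33 (adjusted p = 0.00837).

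*CMK*, the kinase, was lowest in SS-24 h and passed the call rule against 0 h at no other time. It was at 54.6, 43.4 and 41.9 FPKM in SS-6 h, 65.1, 61.6 and 65.4 FPKM in SS-12 h, 25.1, 25.2 and 25.9 FPKM in SS-24 h, and 46.4, 41.1 and 44.3 FPKM in SS-48 h, against 61.2, 55.6 and 52.9 FPKM at 0 h. The 3 samples of SS-24 h lay within 1 FPKM of each other and far below every other sample. SS-6 h overlapped 0 h through replicate 1 (54.6 FPKM), while replicates 2 and 3 were below every 0 h sample. After replenishment *CMK* was at 52.9, 51.9 and 51.3 FPKM, the tightest group for any of the 4 genes (coefficient of variation 1.58%), and this group overlapped 0 h.

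*CMK* was called lower in SS-24 h than in 0 h, by −1.12 (SE 0.088, 95% interval −1.31 to −0.94, adjusted p = 6.45e-08), and lower in SS-24 h than in SS-12 h, by −1.30 (adjusted p = 6.43e-09), which is 0.396-fold in FPKM. At SS-48 h it was 0.77 above SS-24 h (adjusted p = 2.25e-06), which was not a call, and still 0.36 below 0 h (log2 fold change −0.36, adjusted p = 0.00249). The other differences from 0 h were −0.28 in SS-6 h (adjusted p = 0.0102), −0.40 without replicate 1 of SS-6 h, 0.18 in SS-12 h (adjusted p = 0.0947) and −0.11 in SR-12 h (adjusted p = 0.299). The SS-6 h difference of *CMK* was −0.07 with median-ratio scaling (adjusted p = 0.506) and −0.08 beyond the all-gene median, and its adjusted p was 0.114 when only SS-6 h and 0 h were fitted. It was −0.38 rescaled to TPM (adjusted p = 0.000216) and −0.34 with quantile normalization (adjusted p = 0.0011), so its size depends on the scaling. The SS-12 h difference was 0.23 with median-ratio scaling (adjusted p = 0.0484) and 0.08 with quantile normalization (adjusted p = 0.395). The SS-48 h difference was −0.57 beyond the all-gene median. *CMK* differed by 0.46 between SS-12 h and SS-6 h (adjusted p = 0.00042), or 0.28 beyond the all-gene median and 0.57 without replicate 1 of SS-6 h. Between SR-12 h and SS-48 h it differed by 0.24 (adjusted p = 0.0236), or 0.60 beyond the all-gene median. Rescaled to TPM, the SR-12 h over SS-48 h difference was 0.11 (adjusted p = 0.174). In the order of its levels only the extremes did not overlap their neighbours. SS-12 h was narrowly above 0 h (lowest sample 61.6 FPKM against a highest of 61.2 FPKM). SS-24 h was far below SS-48 h (highest sample 25.9 FPKM against a lowest of 41.1 FPKM). The neighbours among SS-6 h, SS-48 h, SR-12 h and 0 h all overlapped.

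*MCS*, the next enzyme of the pathway after CMK, was at its highest early in starvation. It was at 59.9, 52.3 and 40.6 FPKM in SS-6 h, 40.5, 36.8 and 33.9 FPKM in SS-12 h, 23.5, 20.4 and 19.3 FPKM in SS-24 h, and 27.7, 29.3 and 26.9 FPKM in SS-48 h, against 21.8, 20.8 and 21.5 FPKM at 0 h. Every sample of SS-6 h, SS-12 h and SS-48 h was above every sample of 0 h, and SS-24 h overlapped 0 h. SS-6 h was the most scattered group of any of the 4 genes (coefficient of variation 19.1%), with replicate 1 the highest. After replenishment *MCS* was at 27.7, 27.9 and 23.7 FPKM, above 0 h in all 3 samples and overlapping SS-48 h.

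The early gain of *MCS* was called, at 1.20 for SS-6 h over 0 h (SE 0.12, 95% interval 0.94 to 1.46, adjusted p = 3.56e-07), 2.39-fold in FPKM. Without replicate 1 of SS-6 h it was 1.07, and beyond the all-gene median 1.40. At SS-12 h the difference from 0 h was 0.77 (adjusted p = 6.55e-05), in SS-24 h −0.02 (adjusted p = 0.911, 95% interval −0.28 to 0.24), in SS-48 h 0.37 (adjusted p = 0.015) and in SR-12 h 0.29 (adjusted p = 0.0574), none of them a call. *MCS* stepped by −0.43 in SS-12 h over SS-6 h (adjusted p = 0.00733), and by −0.31 without replicate 1 of SS-6 h (adjusted p = 0.0275). That step was −0.59 with median-ratio scaling (adjusted p = 0.00074), and its adjusted p was 0.0957 when only the 2 groups were fitted. Later steps were −0.79 in SS-24 h over SS-12 h (adjusted p = 4.77e-05) and 0.40 in SS-48 h over SS-24 h (adjusted p = 0.0112). This last step was 0.16 with median-ratio scaling (adjusted p = 0.287) and 0.08 with quantile normalization (adjusted p = 0.521), and the SS-48 h difference from 0 h was 0.16 with either (adjusted p = 0.265 and 0.2). The SR-12 h difference from 0 h was larger under both, at 0.42 and 0.47 (adjusted p = 0.00871 and 0.00122). Rescaled to TPM, that last step and the SS-48 h difference from 0 h were 0.445 each (adjusted p = 0.00153 and 0.00145). The SR-12 h difference from 0 h was then 0.24 (adjusted p = 0.0675). Between SR-12 h and SS-48 h *MCS* differed by −0.08 (adjusted p = 0.569), and by 0.27 beyond the all-gene median, and the sign of this difference depends on the scaling.

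*FPPS*, the farnesyl diphosphate synthase, was the only one of the 4 that stayed above 0 h in every starved sample. It was at 189, 171 and 166 FPKM in SS-6 h, 115, 110.3 and 105 FPKM in SS-12 h, 106, 108 and 115 FPKM in SS-24 h, and 127, 133 and 136 FPKM in SS-48 h, against 75.4, 71.2 and 73.9 FPKM at 0 h. SS-6 h and SS-48 h each stood clear of the other groups, and SS-12 h and SS-24 h overlapped. At SR-12 h *FPPS* was at 88.6, 76.5 and 80.7 FPKM, below all 12 starved samples and just above the 3 samples of 0 h.

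At SS-6 h *FPPS* was called higher than in 0 h, by 1.24 (SE 0.068, 95% interval 1.09 to 1.38, adjusted p = 3.29e-10), 2.38-fold in FPKM. It was 1.18 without replicate 1 of SS-6 h and 1.44 beyond the all-gene median, and with quantile normalization between samples it was 0.91, under the 2-fold limit. Later differences from 0 h were 0.58 in SS-12 h (adjusted p = 3.27e-06), 0.57 in SS-24 h (adjusted p = 5.71e-06), 0.84 in SS-48 h (adjusted p = 4.84e-08) and 0.15 in SR-12 h (adjusted p = 0.0742), and none was a call. The SS-48 h difference was 0.62 with median-ratio scaling and also beyond the all-gene median, and 0.91 rescaled to TPM. *FPPS* was 0.69 lower in SR-12 h than in SS-48 h (log2 fold change −0.69, adjusted p = 3.38e-07), or −0.33 beyond the all-gene median. The step in SS-12 h over SS-6 h was −0.66 (adjusted p = 9.13e-07), and −0.61 without replicate 1 of SS-6 h. Later steps were −0.01 in SS-24 h over SS-12 h (adjusted p = 0.97) and 0.27 in SS-48 h over SS-24 h (adjusted p = 0.00331). With median-ratio scaling this last step was 0.02 (adjusted p = 0.821), as it was 0.03 beyond the all-gene median, and the SR-12 h difference from 0 h was 0.29 (adjusted p = 0.00418). The last step was 0.33 with quantile normalization (adjusted p = 0.000281) and 0.32 rescaled to TPM (adjusted p = 0.000701). With the same scalings the SR-12 h difference from 0 h was 0.18 and 0.095 (adjusted p = 0.0241 and 0.25).

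Counted over the 4 genes, 2 were called higher in SS-6 h than in 0 h (*MCS* and *FPPS*, against 9.64% of all genes) and 0 lower (21.7% of all genes), with a median of 0.46 beside −0.20 for all genes. At SS-12 h 0 of 4 were called against 0 h, where 7.42% of all genes were higher and 11.9% lower, and the median of the 4 was 0.38. SS-24 h had 1 of 4 called lower (*CMK*, against 6.89% of all genes) and 0 higher (4.57%), with a median of −0.44 beside −0.03. SS-48 h likewise had 1 of 4 called lower (*DXS*, against 8.04%) and 0 higher (12.7%), with a median of 0.01 beside 0.22. For SR-12 h against 0 h 0 of 4 were called, beside 4.99% of genes higher and 8.42% lower. Between SR-12 h and SS-48 h 1 of 4 was called higher (*DXS*, against 8.21%) and 0 lower (18.0%), with a median of 0.08 beside −0.36.

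Along the time course the 4 genes crossed the 2-fold limit at a single step. SS-12 h against SS-6 h gave 0 of 4, beside 10.1% of all genes higher and 5.18% lower. SS-24 h against SS-12 h gave 1 of 4 lower (*CMK*, beside 8.73%) and 0 higher (11.2%), with a median of −0.76 over the 4 genes and 0.02 over all genes. SS-48 h against SS-24 h gave 0 of 4, beside 13.1% higher and 6.59% lower. Each gene was thus called in 1 comparison with 0 h, and none at more than 1 starvation time with the values as deposited. With quantile normalization *DXS* was called in both SS-24 h (−1.05) and SS-48 h (−1.38), and *FPPS* at no time. The paper's own analysis of these samples lists each of the 4 genes as changed at least 2-fold at the starvation time called here. The 4 genes were chosen with earlier results known, so their calls are not an independent finding. With 4 genes these counts describe the genes named and no wider group.

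**Figure D2:**
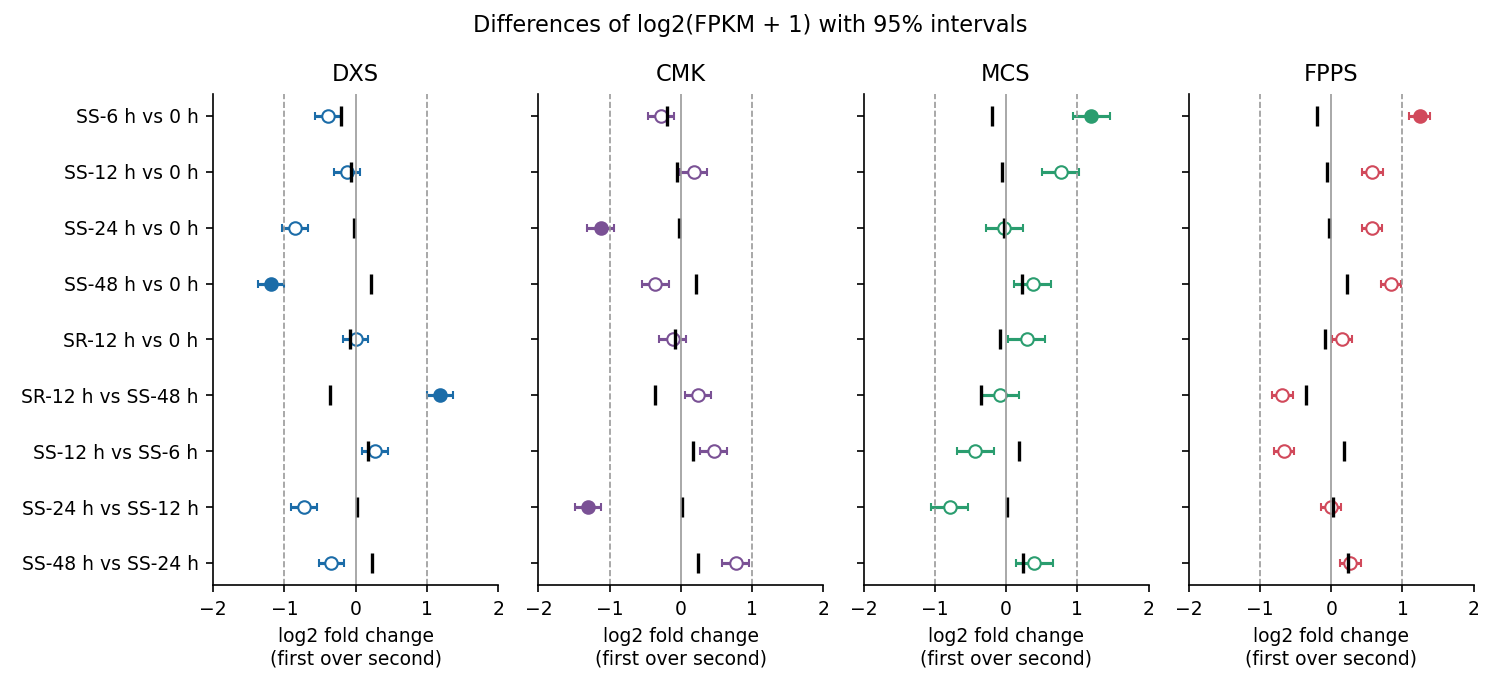
Log2 fold change of FPKM + 1 (x axis, first group over second) with its 95% interval for the 4 genes in the 9 comparisons (y axis). Filled circles passed the call rule, open circles did not, the black tick is the median of all genes and dashed lines mark 2-fold. *MCS* (1.20) and *FPPS* (1.24) are filled in SS-6 h against 0 h, *CMK* in SS-24 h (−1.12 against 0 h and −1.30 against SS-12 h) and *DXS* in SS-48 h (−1.19) and SR-12 h against SS-48 h (1.19).

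Since *DXS* and the other genes were measured in the same libraries, their FPKM ratio within a sample does not depend on how samples are scaled to each other. *FPPS* relative to *DXS* was 1.21, 0.878 and 0.857 in SS-6 h, 0.508, 0.511 and 0.501 in SS-12 h, 0.869, 0.751 and 0.905 in SS-24 h, and 1.31, 1.26 and 1.28 in SS-48 h, against 0.307, 0.308 and 0.318 at 0 h. All 12 starved samples were thus above all samples of 0 h, and only in SS-48 h and SS-6 h replicate 1 was *FPPS* the more abundant transcript of the 2. At SR-12 h the ratio was 0.361, 0.338 and 0.342, close above 0 h without overlap. The ratio was 4.12-fold that of 0 h in SS-48 h and 1.11-fold in SR-12 h.

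*MCS* relative to *DXS* was 0.384, 0.269 and 0.210 in SS-6 h and 0.285, 0.276 and 0.253 in SS-48 h, against 0.0886, 0.0900 and 0.0927 at 0 h, which is 3.08-fold and 3.0-fold. At SS-12 h it was 1.88-fold, in SS-24 h 1.78-fold and in SR-12 h 1.24-fold that of 0 h, with no overlap at any of these times. *CMK* relative to *DXS* was 0.478, 0.388 and 0.416 in SS-48 h against 0.249, 0.241 and 0.228 at 0 h, 1.78-fold, and 0.205, 0.175 and 0.203 in SS-24 h, 0.812-fold. At SR-12 h the *CMK* ratio overlapped 0 h. At SS-6 h it did so only in that replicate 1 lay above 0 h (0.350) and replicates 2 and 3 below it (0.223 and 0.216). In all, 13 of the 15 ratio comparisons with 0 h had no overlap. Each of these 13 reached an exact two-sided permutation p of 0.1, the smallest that 3 samples against 3 allow (0.115 after adjustment over the 15), so this test cannot go under 0.05 for a single ratio.

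**Figure D3:**
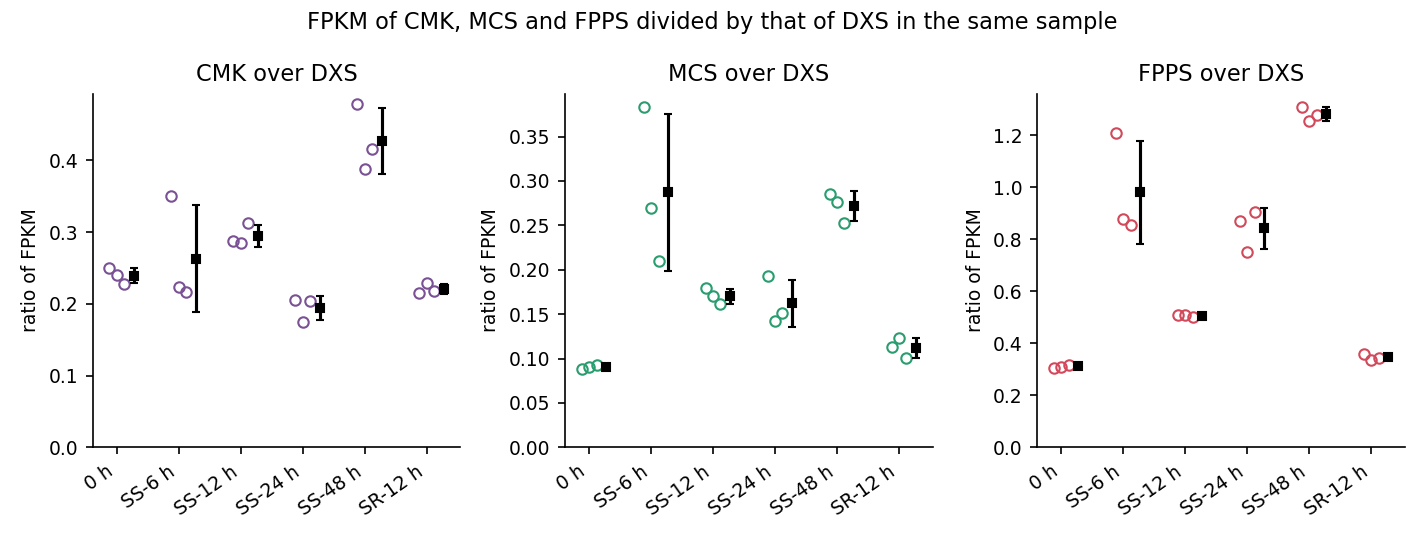
FPKM of *CMK*, *MCS* and *FPPS* divided by that of *DXS* in the same sample (y axis, starting at 0) in the 6 groups (x axis). Open circles are the 3 replicates and black squares with bars the mean and SD. The *FPPS* ratio reaches 1.28 ± 0.0275 in SS-48 h against 0.311 ± 0.0063 at 0 h and is 0.347 ± 0.0122 in SR-12 h.

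Both the total of the 4 transcripts and its make-up varied over the groups. Their summed FPKM was 454 ± 10.8 in SS-6 h, 429 ± 17.1 in SS-12 h, 287 ± 10.3 in SS-24 h and 307 ± 7.98 in SS-48 h, against 388 ± 14.2 at 0 h (SD, n = 3 each). *DXS* made up 33.6% ± 0.909 of this sum in SS-48 h against 60.9% ± 0.129 at 0 h, and *FPPS* 43.0% ± 0.385 in SS-48 h against 19.0% ± 0.409 at 0 h. At SR-12 h the sum was 396 ± 16.6 FPKM, with 59.5% ± 0.610 from *DXS* and 20.7% ± 0.685 from *FPPS*. No test was run on these shares, which restate the levels above.

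The 4 other genes of the MEP pathway were not called against 0 h. *DXR*, which reduces the product of DXS, *CMS*, which adds the cytidine group that CMK's substrate carries, and *HDS* and *HDR*, the iron-sulfur enzymes of the last steps, gave 0 of 4 calls in each of these 5 comparisons, in which 4.57% to 12.7% of all genes were higher and 6.89% to 21.7% lower. The 4 main genes were not an unselected sample of the route, so nothing is read from the difference in counts. *HDS* was at 155, 162 and 167 FPKM in SS-6 h against 111, 102 and 104 FPKM at 0 h (log2 fold change 0.61, adjusted p = 5.96e-07), and *HDR* at 287, 287 and 286 FPKM in SS-48 h against 193, 190.1 and 197 FPKM at 0 h (0.56, adjusted p = 4.34e-07). Both lay above 0 h without overlap and under the 2-fold limit. *DXR* was the only one of these called at any step: it fell in SS-24 h to 52.7, 58.0 and 58.7 FPKM, against 116, 118 and 112 FPKM in SS-12 h (−1.02, adjusted p = 1.93e-07), the step at which *CMK* was called lower. *DXR* differed from 0 h by 0.07 in SS-48 h (adjusted p = 0.562), the time at which *DXS* was 1.19 lower on the log2 scale.

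Among the 5 genes for isomerases and other prenyl diphosphate synthases, 1 was called against 0 h (in SS-6 h, beside 9.64% of all genes higher). *IPPI1*, annotated as an isomerase of isopentenyl diphosphate, was at 144, 117 and 105 FPKM in SS-6 h against 57.0, 51.4 and 55.8 FPKM at 0 h (1.13, SE 0.0995, adjusted p = 6.81e-08). It was called in SS-6 h, as were *MCS* and *FPPS*, and it was lower in SS-12 h than in SS-6 h by −1.04 (adjusted p = 4.03e-07). A further isomerase gene, *IPPI*, was at 92.9, 54.2 and 44.4 FPKM in SS-6 h against 25.7, 29.7 and 35.1 FPKM at 0 h (0.996, adjusted p = 0.000379), just under the limit, with SS-6 h replicate 1 far above the other samples. *GGPPS*, which feeds the carotenoid branch, was at 59.4, 79.9 and 83.4 FPKM in SS-6 h and 87.7, 95.2 and 94.9 FPKM in SS-48 h, against 92.1, 93.4 and 98.5 FPKM at 0 h (−0.36, adjusted p = 0.00439 and −0.03, adjusted p = 0.801). Its SS-6 h values were all below 0 h, with replicate 1 the lowest, and the difference was −0.16 beyond the all-gene median.

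At SR-12 h, 2 of the 5 genes, both isomerases, were called lower than in SS-48 h, beside 18.0% of all genes and an all-gene median of −0.36. *IPPI2* was at 36.1, 29.95 and 31.6 FPKM in SR-12 h against 94.0, 89.5 and 108 FPKM in SS-48 h (−1.55, adjusted p = 2.32e-10), and *IPPI1* at 28.3, 29.1 and 34.9 FPKM against 74.4, 67.9 and 71.8 FPKM (−1.19, adjusted p = 5.03e-08). Both were also below 0 h in SR-12 h in all samples (−0.84 for *IPPI2* and −0.81 for *IPPI1*). *GGPPS* lay 0.60 above SS-48 h in SR-12 h (adjusted p = 7.31e-05), *FPPS* 0.69 below it. *AACT*, the thiolase at the start of the mevalonate route, was called lower in SR-12 h than in SS-48 h (−1.30, adjusted p = 2.57e-07), and neither it nor *HCS*, the next enzyme of that route, was called against 0 h.

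**Figure D4:**
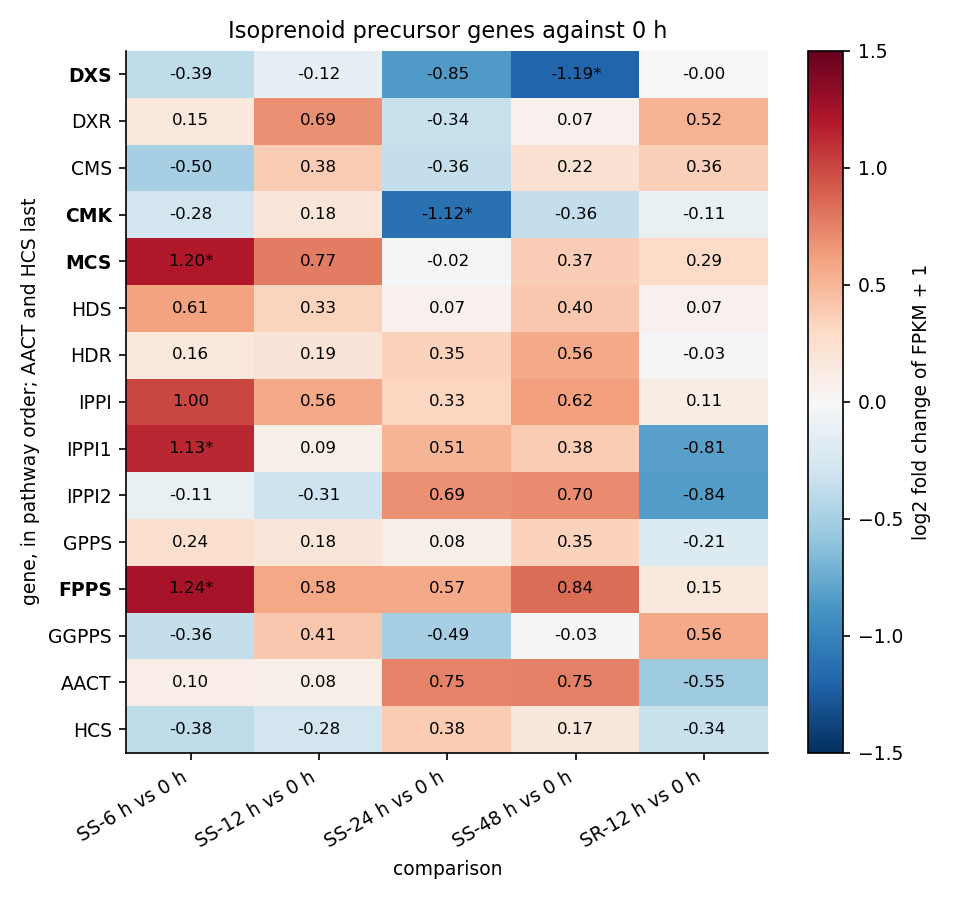
Log2 fold change of FPKM + 1 against 0 h (colour and printed value, red higher and blue lower) for 15 isoprenoid precursor genes (y axis, *DXS*, *CMK*, *MCS* and *FPPS* in bold) at the 4 starvation times and SR-12 h (x axis). Stars mark calls, which fall on *MCS*, *FPPS* and *IPPI1* in SS-6 h, *CMK* in SS-24 h and *DXS* in SS-48 h.

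Of 15 carotenoid genes downstream of these precursors, 2 were called higher and 6 lower in SS-6 h than in 0 h (9.64% and 21.7% of all genes), 0 and 2 in SS-12 h (7.42% and 11.9%), 0 and 3 in SS-24 h (4.57% and 6.89%) and 0 and 4 in SS-48 h (12.7% and 8.04%). The lower ones in SS-6 h included *PSY*, the phytoene synthase that commits geranylgeranyl diphosphate to carotenoids, at 9.29, 15.5 and 15.03 FPKM against 37.2, 42.8 and 32.6 FPKM at 0 h (−1.46, adjusted p = 2.14e-06). The higher ones were *CRTISO3*, annotated as a carotenoid isomerase (1.78, adjusted p = 3.63e-09), and *BKT1*, the β-carotene ketolase of the astaxanthin route (1.05, adjusted p = 2.9e-05). *CHYb*, the β-carotene hydroxylase of that route, was among those called lower in SS-6 h (−1.52, adjusted p = 4.24e-06). In SS-48 h *BKT1* was below 0 h (−0.57, adjusted p = 0.00642), which was not a call. At SR-12 h 0 of 15 were called against 0 h (4.99% of all genes higher and 8.42% lower).

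Likeness of time courses was measured as the root mean square difference of centred log2(FPKM + 1) over the 18 samples, with smaller values for more alike courses. Among the 4 genes *MCS* and *FPPS* were nearest (0.317), then *DXS* and *CMK* (0.385), and *DXS* and *FPPS* were farthest apart (0.763). For comparison, the standard deviation of a gene's own course was 0.458 for *DXS*, 0.423 for *CMK*, 0.448 for *MCS* and 0.417 for *FPPS*, so the course of *DXS* was no nearer to that of *MCS* (0.614) than a flat line was. Among 26 other isoprenoid and carotenoid genes, the nearest to *DXS* was *VDE*, violaxanthin de-epoxidase (0.369), followed by *DXR* (0.379). *CMK* was nearest to *DXR* (0.292) and *GGPPS* (0.337), *MCS* to *IPPI* (0.284) and *ZDS*, ζ-carotene desaturase (0.285), and *FPPS* to *IPPI* (0.224) and *LCYb*, lycopene β-cyclase (0.230).

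Over the 12645 genes with a mean of at least 5 FPKM, closer courses were found outside these lists. The nearest gene was Cz09g10090 for *DXS* (0.152), Cz12g16230 for *CMK* (0.151), Cz09g32200 for *MCS* (0.150) and Cz05g13180 for *FPPS* (0.115). These IDs are not paired with a name in the sources used here. The 18 samples share only 6 conditions, so many genes can follow any such course.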

How the data were processed

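RNA-seq of 18 samples (6 groups of 3) was analysed from 1 table per sample. The authors aligned reads with HISAT and Bowtie2 and quantified genes with RSEM (versions not given in the sources used here), and deposited FPKM per gene to 0.01. Genes absent from a sample's table were taken as 0. The authors made their own calls with DESeq2 on counts, which were not used here. Since FPKM are not counts, log2(FPKM + 1) of all 15220 genes was fitted with limma 3.58.1 in R 4.3.3 (group means of all 18 samples, eBayes with trend, Benjamini-Hochberg adjustment), for 9 comparisons and an F test. A call needed a log2 fold change of at least 1 and an adjusted p of at most 0.05. The script was tested on simulated data. Ratios were compared by exact permutation with scipy 1.17.1. Groups and replicates follow the sample labels, which call the replicates biological. The paper lists clean reads per sample, which were similar among the 18 samples. In the paper's list SS-6 h replicate 1 had the lowest share of reads mapped to genes. Relative depth came from FPKM steps between 0.3 and 3. The genes named were the 4 members, the fixed pathway lists and the nearest genes by likeness. Members and lists were chosen with earlier results of these data known. Alternatives were pseudocounts of 0.1 and 0.5, FPKM minimums of 1 and 5, 3 rescalings, fits of 2 groups, without trend, with a replicate block, limma's treat, and leaving out replicates. Sequences and genome positions were not used here. Sources differ on whether sulfur was returned by fresh medium or by adding sulfate.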

Additional observations from a re-analysis of the deposited data

How the results depend on the processing

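Of 612 values of the 4 genes under alternatives, 591 kept their direction and their side of the threshold, and 25 of 36 gene comparisons never changed. With median-ratio scaling the sign turned for *MCS* in SS-24 h over 0 h (0.0063) and in SR-12 h over SS-48 h (0.26), and for *DXS* (0.13) and *CMK* (0.0178) in SR-12 h over 0 h, and 1268 genes were called higher in SS-48 h than in 0 h (1927 as deposited) and 1556 lower in SR-12 h than in SS-48 h (2732). Rescaled to TPM, *FPPS* in SS-24 h over SS-12 h was 0.10. With quantile normalization *FPPS* in SS-6 h over 0 h was 0.91 and lost its call, *DXS* in SS-24 h over 0 h was −1.05 and gained one, *MCS* in SS-24 h over 0 h was 0.0762 and in SR-12 h over SS-48 h 0.31, and *FPPS* in SS-24 h over SS-12 h was 0.0284. Genes called lower then numbered 2070 in SS-6 h over 0 h (3308) and 1809 in SR-12 h over SS-48 h (2732), and those higher in SS-12 h over SS-6 h 935 (1533). The cause of these changes was not tested. limma's treat against 0.5, a lower limit by construction, added *DXS* in SS-24 h over 0 h (−0.85) and over SS-12 h (−0.73), *FPPS* in SS-48 h over 0 h (0.84) and SR-12 h over SS-48 h (−0.69), and *CMK* in SS-48 h over SS-24 h (0.77).

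Leaving out replicates turned the sign only of differences near 0: *DXS* in SR-12 h over 0 h ranged from −0.0311 to 0.027, *FPPS* in SS-24 h over SS-12 h from −0.0394 to 0.0272 and *MCS* in SS-24 h over 0 h from −0.0998 to 0.0368. Replicate numbers did not pair the samples: same-numbered samples had a mean correlation of −0.001 and 8 of 18 were closest to their own number. With the replicate number as a block, 3306 genes were called lower in SS-6 h than in 0 h and *MCS* there had an adjusted p of 1.08e-07. No call of the 4 genes changed. Apart from the 2-fold limit, the adjusted p of 13 of the 36 gene comparisons crossed 0.05 under at least 1 alternative other than treat, and 8 of these were under 0.05 as deposited. The FPKM keep no read counts, so the counting error of single values is unknown.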
